A study of Mus musculus with 75 samples.

Results

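The genes followed here encode 5 proteins that fat secretes or that are counted among its hormones: adiponectin (Adipoq), adipsin or complement factor D (Cfd), resistin (Retn), retinol binding protein 4 (Rbp4) and nicotinamide phosphoribosyltransferase, also called visfatin (listed under its older symbol Pbef1, now Nampt). They were picked by symbol, and all 5 were found among the 21625 genes that the chow table (22423 genes) and the high-fat diet table (21983 genes) share. Each of the 5 passed the filter on low counts in every tissue. On the high-fat diet, all 5 transcripts were called higher in mice with the C57 than with the C3H nuclear genome in inguinal fat, where 16.3% of all genes were called in either direction, and 3 of the 5 (Cfd, Retn and Rbp4) in epididymal fat, where 13.2% were. Between diets, averaged over genotypes, Cfd fell in both depots and Retn in epididymal fat. With Pbef1 in inguinal fat, 2 of the 5 were called in each depot. That is close to the share of all genes called, 41.3% in epididymal and 37.6% in inguinal fat.

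Adiponectin is made almost solely by adipocytes and raises fatty acid oxidation and insulin sensitivity through its receptors Adipor1 and Adipor2. Adipsin is the serine protease that starts the alternative complement pathway by cutting factor B, and it is also made mainly by adipocytes. Resistin is an adipocyte hormone in mice that opposes insulin action in the liver. Retinol binding protein carries vitamin A from the liver in blood, and fat makes it too. Nampt catalyses the rate-limiting step of NAD recycling in most cells, and a secreted form is known as visfatin.

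The libraries are bulk RNA-seq of epididymal white fat (eWAT, a visceral depot), inguinal white fat (iWAT, a subcutaneous depot) and gastrocnemius muscle. The wild types are C57BL6/J (C57n:C57mt, for nuclear and mitochondrial genome) and C3H/HeN (C3Hn:C3Hmt), and the mitochondrial-nuclear exchange (MNX) mice carry the other strain's mitochondrial DNA (mtDNA; C57n:C3Hmt and C3Hn:C57mt). All mice were weaned onto chow, and the high-fat diet (HFD) groups were switched at 6 weeks of age and studied to 12 to 13 weeks, per the labels. Fat was taken on both diets and muscle on chow only, which makes 20 groups of 3 or 4 libraries and 75 libraries in all. Replicates were taken as separate animals because the titles number them differently. The labels state no sex, and no treatment other than diet.

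Total counts per library lay between 15.7 and 31.5 M. The titles carry codes that the labels do not explain, and these were taken as sequencing run and lane. By those codes chow and HFD libraries share no run (1 for chow, 3 for HFD), so diet and run cannot be told apart. The share of G+C in aligned reads was 47.73 to 49.98% in iWAT on chow and 46.39 to 48.61% on HFD. Lane and nuclear genome coincide among chow libraries, save for 1 in eWAT, so these cannot be told apart there, while on HFD run could be fitted as a covariate. The 3 eWAT libraries of C57n:C3Hmt on HFD all come from 1 run. The tissue labels were checked on Fabp4, the adipocyte lipid carrier, which was at 2228 to 22090 CPM (counts scaled to library size) in fat and 265.7 to 512.5 CPM in muscle, and on the muscle actin Acta1 (58480 to 96240 CPM in muscle). In 6 of the 29 eWAT libraries a list of 12 epididymal epithelium genes lay above a mean of 2 log2 CPM: C57n:C3Hmt chow replicates 1 and 4, C57n:C57mt chow replicate 3, C3Hn:C57mt chow replicates 2 and 4 and C3Hn:C3Hmt HFD replicate 1. Results in eWAT are given with and without these 6 where they differ. Differences in bulk tissue cannot tell fewer cells of a type from less RNA per cell.

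The promoters of the 5 genes differ in base composition and are shown for that reason. All 5 symbols matched RefSeq, and Rbp4 has 2 start sites there. The 150 bases before each start, in build GRCm38.p6, read as follows from 5′ to 3′, with CG dinucleotides in capitals.
Adipoq (plus strand, chr16:23146386-23146535): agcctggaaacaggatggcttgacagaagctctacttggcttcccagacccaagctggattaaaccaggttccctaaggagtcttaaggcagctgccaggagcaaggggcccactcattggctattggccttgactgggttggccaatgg
Retn (plus strand, chr8:3655620-3655769): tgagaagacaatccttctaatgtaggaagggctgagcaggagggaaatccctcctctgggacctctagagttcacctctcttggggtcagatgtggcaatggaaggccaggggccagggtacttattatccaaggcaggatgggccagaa
Cfd (plus strand, chr10:79890703-79890852): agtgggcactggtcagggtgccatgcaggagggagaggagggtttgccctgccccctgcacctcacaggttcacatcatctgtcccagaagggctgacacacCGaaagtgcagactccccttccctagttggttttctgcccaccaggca
Rbp4 first start site (minus strand, chr19:38125322-38125471): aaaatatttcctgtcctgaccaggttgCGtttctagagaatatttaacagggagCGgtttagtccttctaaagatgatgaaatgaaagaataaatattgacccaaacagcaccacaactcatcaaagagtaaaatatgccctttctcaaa
Rbp4 second start site (minus strand, chr19:38124812-38124961): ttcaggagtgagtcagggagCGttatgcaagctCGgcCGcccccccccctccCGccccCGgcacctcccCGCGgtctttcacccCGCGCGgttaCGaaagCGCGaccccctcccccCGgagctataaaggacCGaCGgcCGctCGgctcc
Pbef1 (plus strand, chr12:32820185-32820334): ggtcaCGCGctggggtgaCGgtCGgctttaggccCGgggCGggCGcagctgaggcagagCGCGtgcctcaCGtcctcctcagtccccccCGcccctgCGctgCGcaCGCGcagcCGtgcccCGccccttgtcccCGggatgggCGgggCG

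The windows of Adipoq and Retn held 0 CG dinucleotides, as did 14.3% of 32851 mouse promoter windows of this length. The Cfd window held 1, with 29.3% of windows at or below that. The second Rbp4 window held 18 and the Pbef1 window 20, and 92.3% and 94.9% of windows held at most that many. The Pbef1 promoter is thus of the CG-rich kind known from genes used in most cells, and the first Rbp4 window held 2 (40.6%). On both strands of the 250 bases before each start, the letters CCAAT, which 33.8% of such windows hold, were found 3 times before Adipoq, within 34 bases of the start, and once before the first Rbp4 start. The second Rbp4 window holds TATAAA 28 to 23 bases before its start (12.4% of windows) and a C/EBP-type TTGCNNAA 128 to 121 bases before it (9.6%). The letters CACGTG (6% of windows) and a PPAR-type direct repeat (0.033%) were found before none of the 5, which says only that these letters are not in these windows.

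On mm9, the build of the files (NCBIM37, GENCODE vM1 annotation), Adipoq lies at chr16:23146609-23158101 on the plus strand with 4 exons, Cfd at chr10:79353598-79355401 (plus, 5 exons) and Retn at chr8:3655770-3660110 (plus, 5 exons), exons being merged over transcripts. Rbp4 lies at chr19:38191110-38199811 (minus, 7 exons) and Pbef1 at chr12:33505200-33538234 (plus, 11 exons). The long noncoding RNA gene Gdap10 lies inside Pbef1 with no exon in common, and no other gene overlaps the 5. In the fat libraries a single listed transcript held 100% of the counts of Adipoq, Cfd and Pbef1. No share is given for Retn and Rbp4, whose listed transcripts could not be matched to the gene with certainty.

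Per exon length, Cfd had the highest mean of the 5 on chow. In eWAT on chow it was at 3848 ± 2276 RPKM (reads scaled for library size and exon length; SD, n = 15), Adipoq at 2070 ± 1202, Retn at 559 ± 409, Rbp4 at 322 ± 216 and Pbef1 at 13.0 ± 3.78 RPKM. The same order held for the means in iWAT on chow, with Cfd at 4527 ± 2845 and Pbef1 at 14.6 ± 2.65 RPKM (n = 16). On HFD Adipoq had the highest mean in eWAT (2013 ± 891 RPKM, against 1597 ± 1716 for Cfd, n = 14) and Cfd in iWAT (2749 ± 2088, against 2030 ± 887, n = 14). Cfd alone took 0.202 to 1.32% of all counts in an iWAT chow library, and ranked 7 among all genes at its highest. These SDs run over 4 genotypes, and those of Cfd and Adipoq overlap.

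In muscle 4 of the 5 were far lower and Pbef1 was higher, which is a description over separately prepared tissues. Adipoq was at 49.5 ± 28.9 CPM (SD, n = 16) and Cfd at 133 ± 69.4 CPM in muscle. Retn was at 11.3 ± 7.12 and Rbp4 at 6.90 ± 3.08 CPM. Pbef1 was at 180 ± 15.8 CPM, and its lowest muscle library (159.9) lay above its highest fat library (113.6). Muscle libraries also held other adipocyte transcripts: the lipid droplet coat Plin was at 4.83 to 20.6 CPM and the adipocyte regulator Pparg at 3.65 to 10.5 CPM.

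Ordered over the 20 groups, Adipoq was highest in eWAT of C3Hn:C3Hmt on chow (4561 ± 564 CPM, n = 3) and, among fat groups, lowest in eWAT of C3Hn:C57mt on HFD (888 ± 198, n = 3). In the order of means, each fat group overlapped with the next lower one in the range of its libraries, except that iWAT of C3Hn:C57mt on HFD (1607 ± 254) lay clear above this lowest group. The lowest libraries of 4 other fat groups, at 390.1 to 813.6 CPM, lay within or below the lowest group's range of 758 to 1116 CPM. Cfd was highest in iWAT of C57n:C57mt on chow, with libraries at 3905, 9284, 11400 and 4499 CPM, and, among fat groups, lowest in eWAT of C3Hn:C57mt on HFD (225.9, 94.5 and 110 CPM), inside the range of muscle. Retn and Rbp4 were lowest among fat groups there too, at 72.8 ± 41.1 and 73.6 ± 20.4 CPM. Pbef1 varied least, its group means in fat lying between 49.5 ± 1.36 CPM (eWAT of C3Hn:C57mt on chow, n = 4) and 97.9 ± 8.64 CPM (iWAT of C57n:C3Hmt on HFD, n = 4).

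**Figure D1:**
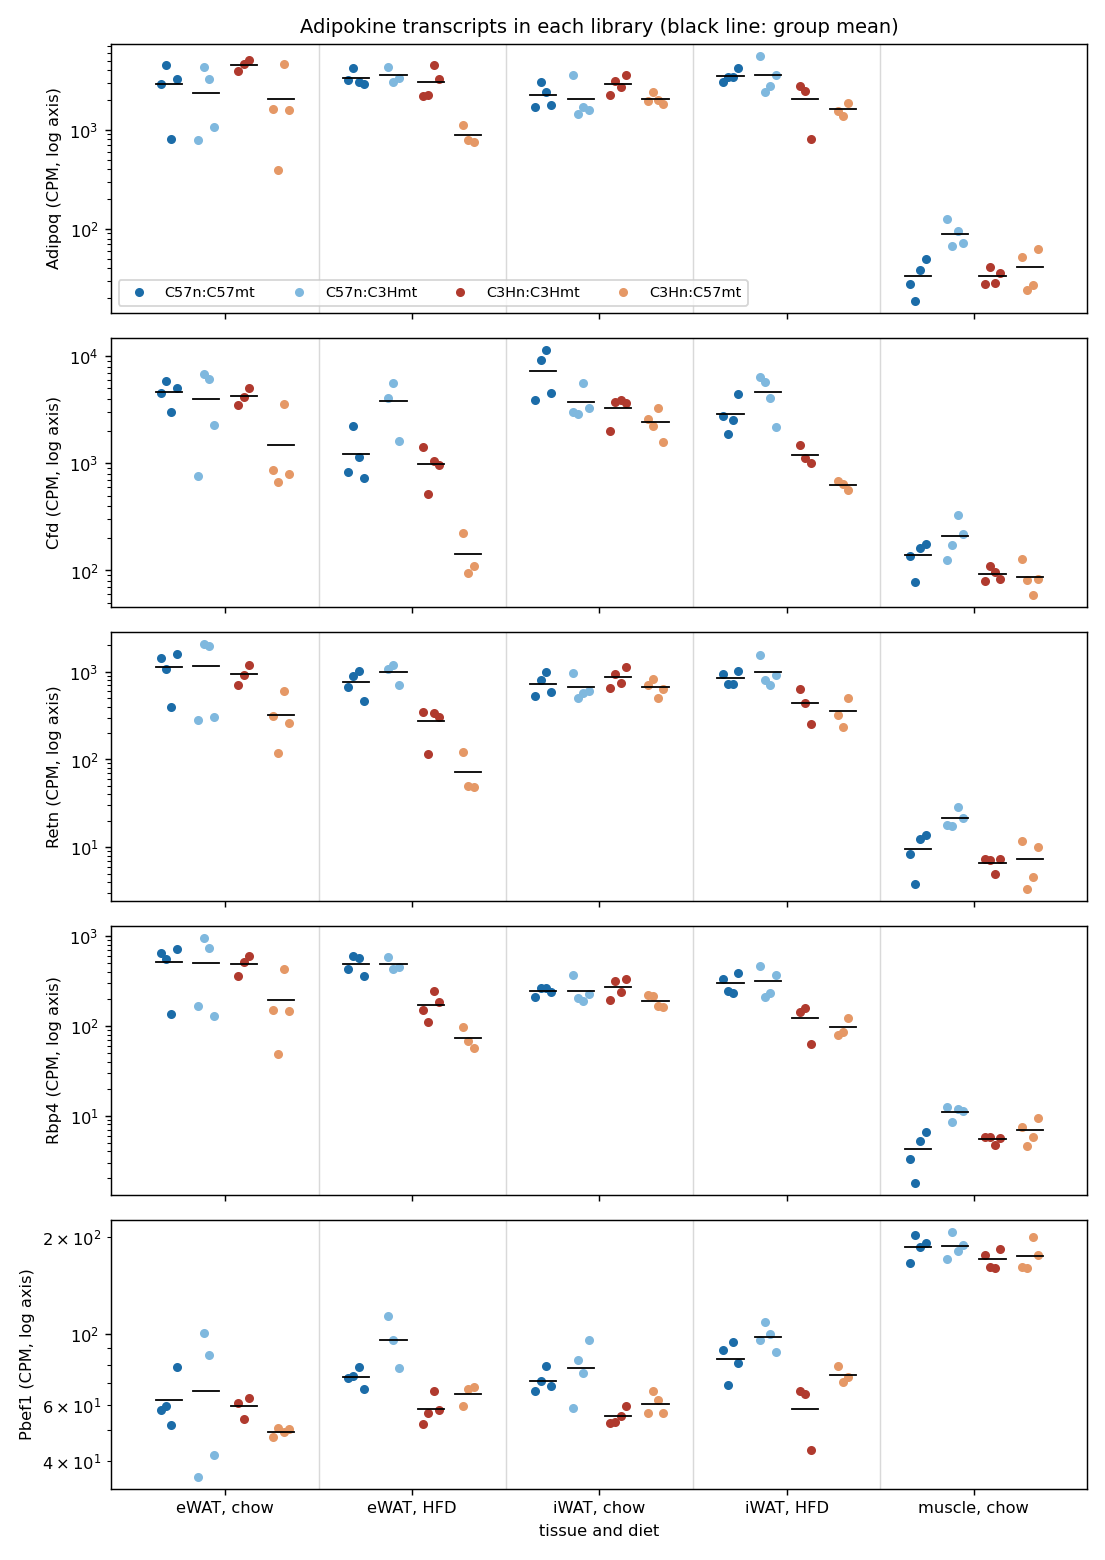
Level of each gene in CPM (log axis) in every library, by tissue and diet, coloured by genotype, with the group mean as a black line. Adipoq, Cfd, Retn and Rbp4 are highest in fat and, in eWAT on HFD, lowest in C3Hn:C57mt; Pbef1 is highest in muscle, at 159.9 to 207.4 CPM.

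The first comparison asks how the diet changed these transcripts. In eWAT, as the mean of the 4 genotypes, Cfd and Retn fell and the other 3 were not called. Of 17687 genes tested there, 41.3% were called (18.5% higher, 22.9% lower), so 2 of 5 called, both lower, is close to the share of all genes; 4 of the 5 had an unadjusted p under 0.05, as did 50.4% of all genes.

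Adipsin, Cfd, ran from 669 to 6849 CPM on chow (median 3596, n = 15) and from 94.5 to 5668 CPM on HFD (median 1007, n = 14), with overlap. It fell by 1.87 ± 0.32 on the log2 scale (SE; edgeR adjusted p = 0.000127). Resistin, Retn, ran from 119 to 2069 CPM on chow (median 707.2) and from 48.5 to 1194 CPM on HFD (median 405), again overlapping, and fell by 1.17 ± 0.31 (adjusted p = 0.00536). Both were also called without the 6 libraries with epithelial RNA (-2.32, adjusted p = 4.76e-06, and -1.63, 1.47e-05).

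Rbp4 was at 48.5 to 952 CPM on chow (median 427) and 56.8 to 595 CPM on HFD (median 303), a difference of -0.74 ± 0.31 with an adjusted p of 0.0553 in edgeR. Adipoq ranged from 390 to 5091 CPM on chow (median 3269) and from 758 to 4524 CPM on HFD (median 3046), a difference of -0.25 ± 0.29 (95% interval -0.82 to 0.33; adjusted p = 0.527). Without the 6 libraries with epithelial RNA both were called lower, Rbp4 by -1.18 (edgeR adjusted p = 4.45e-05) and Adipoq by -0.64 (0.00416). No more than 8675 of all genes were then called, against 7309 with all libraries. Of the 6, 5 are chow libraries, among them the lowest 3 for Adipoq on chow. Pbef1 was at 35.9 to 101 CPM on chow and 52.2 to 114 CPM on HFD, a difference of 0.29 ± 0.12 (adjusted p = 0.051).

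Markers of other cell types moved with the diet in eWAT. Of 10 macrophage genes 9 rose and 0 fell, and their summed level was 318 to 1021 CPM with the C57 nucleus and 321 to 2698 CPM with the C3H nucleus on chow, against 1144 to 2764 and 848 to 7059 CPM on HFD. Of 12 epididymal epithelium genes 8 fell and 0 rose, and their sum was 4.79 to 22940 CPM on chow and 4.18 to 5904 CPM on HFD. Of 16 adipocyte genes only Slc2a4, the insulin-regulated glucose transporter, was called (-0.87 ± 0.25, adjusted p = 0.0089), so 1 fell and 0 rose. With the mean of that adipocyte list as a covariate Cfd fell by 1.71 (adjusted p = 8.3e-06) and Retn by 0.93 (0.000154). Their part in the result otherwise was not tested.

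In iWAT, 37.6% of 16884 genes were called for the diet (21.4% higher, 16.2% lower). Cfd fell and Pbef1 rose, so that 2 of 5 called is close to the share of all genes. Cfd was at 1599 to 11400 CPM on chow (median 3460, n = 16) and 567 to 6385 CPM on HFD (median 2028, n = 14), and fell by 1.09 ± 0.19 (edgeR adjusted p = 9.07e-05). Pbef1 was at 52.8 to 95.4 CPM on chow (median 64.1) and 43.3 to 109 CPM on HFD (median 80.2), with wide overlap, and rose by 0.25 ± 0.07 (0.0054).

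The size of both depends on the correction for base composition. After each library's trend on G+C content and length was removed, the Cfd difference in iWAT was -0.66 (edgeR adjusted p = 0.0138), and that of Pbef1 turned to -0.15 (0.145), so no direction can be given for Pbef1. In eWAT the corrected values were -1.41 for Cfd (0.00216), -1.08 for Retn (0.0109) and -0.10 for Pbef1 (0.486). The Rbp4 difference of -0.35 ± 0.15 in iWAT (0.0609) became -0.04 (0.87) with the correction, and that of -0.74 in eWAT became -0.42 (0.282). Retn in iWAT differed by -0.25 ± 0.16 (0.208; -0.24, 0.24 corrected) and Adipoq by 0.16 ± 0.17 (0.485; 0.08, 0.752 corrected). The median of all genes was -0.10 in eWAT and 0.01 in iWAT. In iWAT 8 of 10 macrophage genes rose and 0 fell, and 1 of 16 adipocyte genes rose and 5 fell; their part was not tested.

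Within genotypes fewer genes passed the test. In eWAT, the share of genes called was 17% for C57n:C57mt and 7.21% for its exchange line C57n:C3Hmt, and 1.67% for C3Hn:C3Hmt against 11.3% for C3Hn:C57mt. Cfd was at 4549, 5856, 3041 and 5100 CPM in C57n:C57mt on chow and at 824, 2221, 1137 and 735 CPM on HFD, with no overlap, a fall of 1.91 ± 0.61 (edgeR adjusted p = 0.0341, called in 23 of 29 fits that left out 1 library). That call was lost with the G+C and length correction (-1.70, 0.0629) and with the lymphocyte list as a covariate (-1.955, 0.0835). In C3Hn:C57mt it was at 876, 669, 3596 and 802 CPM on chow and at 226, 94.5 and 110 CPM on HFD, also apart, a fall of 3.36 ± 0.72 (0.00587; 0.0534 without HFD replicate 3). In C3Hn:C3Hmt the difference was -2.10 ± 0.64 (0.0914; -2.36, 0.011 without the 6 libraries with epithelial RNA; DESeq2 0.0131).

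Cfd in C57n:C3Hmt was at 764, 6849, 6165 and 2293 CPM on chow and at 4062, 5668 and 1612 CPM on HFD, a difference of -0.10 ± 0.63 (edgeR adjusted p = 0.932). Retn fell in C3Hn:C57mt, from 311, 119, 603 and 263 CPM to 120, 49.6 and 48.5 CPM, overlapping in 1 library of each, by 2.14 ± 0.67 (0.0428, called in 18 of 29 fits that left out 1 library). That call was lost with the G+C and length correction (-1.86, 0.0845) and with no filter on low counts (-2.14, 0.0521). In the other 3 genotypes Retn differed by -0.22 to -1.76 without a call, and Adipoq, Rbp4 and Pbef1 were called in none of the 4 with all libraries. With the 6 libraries with epithelial RNA left out, Retn was called in C3Hn:C3Hmt (-1.93, edgeR adjusted p = 0.00922), Rbp4 in C3Hn:C3Hmt (-1.47, 0.0122) and C3Hn:C57mt (-1.98, 0.00241), and Adipoq in C3Hn:C57mt (-1.83, 0.0027). For C3Hn:C3Hmt 1814 of all genes were then called, against 296 with all libraries. For C3Hn:C57mt no more than 4850 were called, against 1991 with all libraries. In C57n:C3Hmt 0 of the 5 were called by edgeR, with 1 at an unadjusted p under 0.05 (28.8% of all genes) and 0 called by DESeq2. In C3Hn:C3Hmt it was also 0, with 3 at an unadjusted p under 0.05 (17.2% of all genes) and 2, Cfd and Retn, called by DESeq2 (7.2% of all genes).

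In iWAT, the share of genes called was 16.7% for C57n:C57mt and 16.5% for its exchange line, and 4.88% for C3Hn:C3Hmt against 7.71% for C3Hn:C57mt. Cfd fell in 3 genotypes: by 1.31 ± 0.37 in C57n:C57mt (edgeR adjusted p = 0.0178, called in 28 of 30 fits that left out 1 library), by 1.44 ± 0.40 in C3Hn:C3Hmt (0.0405, 25 of 30) and by 1.92 ± 0.41 in C3Hn:C57mt (0.00554). None of the 3 was called after the correction for G+C and length (0.115 to 0.154), and that in C3Hn:C3Hmt was also lost with run (0.126) or the adipocyte list (0.0667) as a covariate and with no filter (0.0524). In C57n:C3Hmt Cfd differed by 0.31 ± 0.36 (95% interval -0.39 to 1.01), and 0 of the 5 were called by edgeR (2 at an unadjusted p under 0.05, as were 32% of all genes, and DESeq2 0). Rbp4 fell in C3Hn:C3Hmt, from 193, 312, 237 and 331 CPM to 144, 157 and 62.6 CPM, by 1.13 ± 0.31 (0.037, 26 of 30; 0.182 corrected, 0.184 with run and 0.131 with the adipocyte list as a covariate). Without HFD replicate 3, the only library of its run, that fall of Rbp4 had an edgeR adjusted p of 0.162. Summed lymphocyte genes ran from 5.856 to 2322 CPM in these HFD libraries. With run as a covariate, calls were gained by Rbp4 in C3Hn:C57mt (-0.96, 0.0249) and by Adipoq (0.79, 0.0396) and Pbef1 (0.33, 0.0351) in C57n:C3Hmt. With the lymphocyte list they were gained by Retn in C3Hn:C3Hmt (-1.01, 0.00899) and C3Hn:C57mt (-1.17, 0.00388). For C3Hn:C3Hmt 2479 of all genes were then called, against 824 in the main fit. Rbp4 in C3Hn:C57mt (-1.175, 0.00386) and Adipoq in C57n:C3Hmt (0.65, 0.0374) gained calls with the lymphocyte list too. The adipocyte list added Adipoq in C57n:C57mt (0.63, 0.0373) and C57n:C3Hmt (0.74, 0.0178). In C3Hn:C57mt it added Retn (-0.75, 0.0458), Rbp4 (-0.80, 0.0234) and Pbef1 (0.38, 0.0325), with 4458 of all genes called against 1302. DESeq2 added Retn in C3Hn:C3Hmt (-0.94, 0.0357) and C3Hn:C57mt (-0.90, 0.0405), and Rbp4 in C3Hn:C57mt (-0.97, 0.0168). It called 10.5% and 11.9% of all genes there. Adipoq, Retn and Rbp4 lay above 0 in both C57n genotypes (0.24 to 0.79) and below 0 in both C3Hn genotypes (-0.32 to -1.13).

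**Figure D2:**
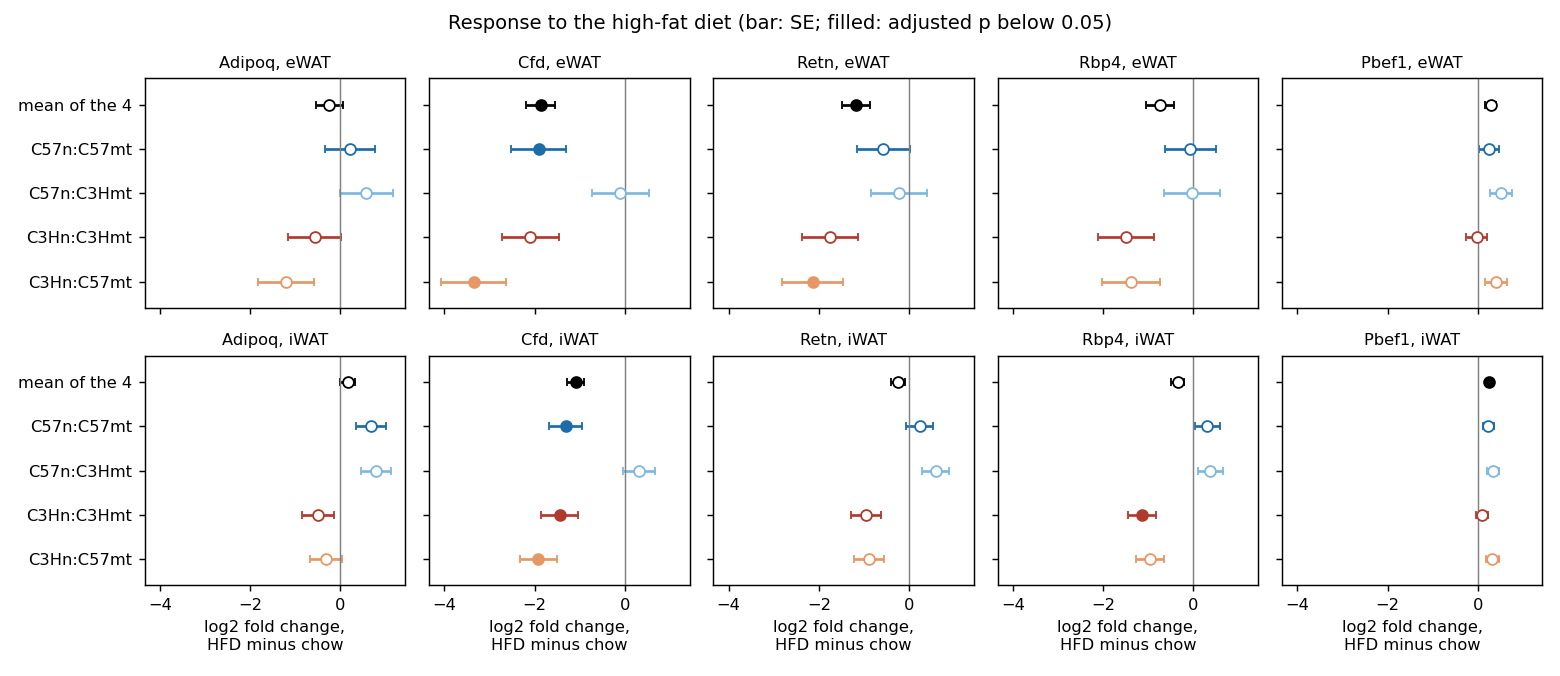
Log2 fold change of HFD minus chow (x axis; bar, SE) for each gene in eWAT (top) and iWAT (bottom), averaged over 4 genotypes and for each one; filled points have an adjusted p below 0.05. Cfd lies below 0 in 7 of the 8 genotype panels, and in iWAT Adipoq, Retn and Rbp4 lie right of 0 with the C57 and left of 0 with the C3H nucleus.

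The second comparison asks how the nuclear genome set these levels, averaged over both mtDNAs. On HFD in eWAT, where 13.2% of genes were called (5.59% higher with the C57 nucleus, 7.59% lower), Cfd, Retn and Rbp4 were called higher in C57n mice. Retn was at 459 to 1194 CPM with the C57 nucleus (median 891, n = 7) and 48.5 to 351 CPM with the C3H nucleus (median 120, n = 7), so that the groups did not overlap. It was higher by 2.59 ± 0.47 on the log2 scale (edgeR adjusted p = 0.000623).

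Rbp4 did not overlap either, with 363 to 595 CPM (median 455) against 56.8 to 243 CPM (median 110), a difference of 2.10 ± 0.46 (edgeR adjusted p = 0.0031). Cfd was at 735 to 5668 CPM (median 1612) against 94.5 to 1409 CPM (median 523), a difference of 2.49 ± 0.48 (0.000949), with 4 C57n libraries above all C3Hn libraries. For Cfd the 2 wild types lay close, at 1229 ± 683 CPM in C57n:C57mt (n = 4) and 986 ± 365 CPM in C3Hn:C3Hmt (n = 4), while the exchange lines stood at 3781 ± 2043 CPM (C57n:C3Hmt, n = 3) and 143 ± 71.8 CPM (C3Hn:C57mt, n = 3). Retn was at 757 ± 247 against 278 ± 111 CPM and Rbp4 at 490 ± 111 against 172 ± 56.8 CPM in the wild types, without overlap, and Adipoq at 3342 ± 592 against 3063 ± 1100 CPM. The wild types were not tested on their own. Adipoq, at 2894 to 4269 against 758 to 4524 CPM, differed by 1.04 ± 0.43 (0.114; 0.99, 0.00227 without the epithelial library C3Hn:C3Hmt HFD replicate 1 and the 5 chow libraries). Pbef1 differed by 0.42 ± 0.17 (0.101), and by 0.42 (0.0034) without those 6. Without them 4919 of all genes were called, against 2332 with all libraries. The within-run estimate, with run as a covariate, was 2.73 for Retn (0.00113), 2.65 for Cfd (0.00156) and 2.19 for Rbp4 (0.0061).

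On HFD in iWAT, where 16.3% of genes were called (8.26% higher, 8.04% lower), all 5 were called higher in C57n mice. Cfd was at 1869 to 6385 CPM (median 3424, n = 8) with the C57 nucleus and 567 to 1488 CPM (median 843, n = 6) with the C3H nucleus, without overlap, a difference of 2.07 ± 0.29 (edgeR adjusted p = 1.72e-05). Rbp4 was at 207 to 465 CPM against 62.6 to 157 CPM, a difference of 1.52 ± 0.22 (2.77e-05). Retn was at 712.4 to 1556 CPM against 237 to 638 CPM, a difference of 1.22 ± 0.24 (0.000676). Neither overlapped.

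Adipoq differed by 0.98 ± 0.25 in the same comparison (edgeR adjusted p = 0.00926), at 2382 to 5534 CPM against 805 to 2792 CPM, 6 of 8 C57n libraries lying above all C3Hn libraries. Pbef1 differed by 0.46 ± 0.10 (0.00229), at 69.2 to 109 CPM against 43.3 to 79.3 CPM. With run as a covariate the 5 differences were 0.39 to 2.10 and all were called.

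Of 16 adipocyte genes, 1 was called higher with the C57 nucleus on HFD in eWAT (Slc2a4, 1.65 ± 0.37, edgeR adjusted p = 0.0039) and 0 in iWAT. Of all genes 5.59% and 8.26% were higher there. The median difference of the 16 was nonetheless above 0, at 0.49 in eWAT and 0.37 in iWAT, against -0.05 and -0.02 for all genes. The mean of the list was 9.97 log2 CPM with the C57 and 9.53 with the C3H nucleus in eWAT, and 10.12 against 9.62 in iWAT. Its summed level was 35420 to 47220 CPM with the C57 nucleus and 23650 to 46620 CPM with the C3H nucleus in eWAT, and 33030 to 51560 against 10810 to 50560 CPM in iWAT. With its mean as a covariate, the differences in eWAT were 2.08 for Retn (edgeR adjusted p = 6.39e-06), 2.11 for Cfd (0.000266), 1.53 for Rbp4 (1.27e-05) and 0.48 for Adipoq (0.0736). In iWAT they were 2.02 for Cfd (6.21e-05), 1.31 for Rbp4 (4.43e-05), 1.01 for Retn (0.00147) and 0.70 for Adipoq (0.0112). Of 10 macrophage genes, 1 was higher and 4 lower with the C57 nucleus in eWAT, and 2 higher and 4 lower in iWAT. The part of macrophage RNA in the result was not tested.

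On chow the nuclear genomes differed less in these genes. In eWAT 15.1% of genes were called (8% higher, 7.11% lower) and none of the 5, with 1 at an unadjusted p under 0.05 (31.8% of all genes) and 1 (Retn) called by DESeq2 (adjusted p = 0.0496; 19.9% of all genes). Retn was at 286 to 2069 CPM (median 1248, n = 8) against 119 to 1192 CPM (median 603, n = 7), a difference of 1.04 ± 0.44 (edgeR adjusted p = 0.104). Without the 6 libraries, 5 of them on chow, Retn (1.35, 0.00919), Rbp4 (0.99, 0.0175) and Pbef1 (0.56, 0.00215) were called higher, and Adipoq differed by -0.02 (0.963). Of all genes no more than 4355 were called without the 6, against 2672 with all libraries. The epithelium list moved with the nuclear genome here too, 4 of 12 genes being higher with the C57 nucleus and 0 lower.

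In iWAT on chow 11.7% of genes were called (5.7% higher, 6.01% lower), among them Cfd and Pbef1. Cfd was at 2918 to 11400 CPM (median 4202, n = 8) against 1599 to 3873 CPM (median 2934, n = 8), a difference of 0.89 ± 0.26 (edgeR adjusted p = 0.023). It was called in 26 of 30 fits that left out 1 library, and not without C3Hn:C3Hmt chow replicate 1, C57n:C57mt chow replicate 3, C57n:C3Hmt chow replicate 3 or C3Hn:C57mt chow replicate 4 (0.74 to 0.99 over all 30, highest adjusted p = 0.0716). Pbef1 was at 58.6 to 95.4 CPM against 52.8 to 66.3 CPM, a difference of 0.38 ± 0.09 (0.00625). Adipoq differed by -0.17 ± 0.23 (95% interval -0.62 to 0.28), Retn by -0.11 ± 0.21 and Rbp4 by 0.13 ± 0.20.

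In muscle 33.6% of 13735 genes were called between nuclei, and Cfd and Retn were among the higher ones. Cfd was at 78.9 to 332 CPM (median 167, n = 8) against 59.3 to 127 CPM (median 83.2, n = 8), a difference of 0.91 ± 0.20 (edgeR adjusted p = 0.00226). Retn was at 3.85 to 28.6 CPM against 3.36 to 11.6 CPM, a difference of 1.01 ± 0.26 (0.00671). Adipoq differed by 0.54 ± 0.22 (0.0752), Rbp4 by 0.13 ± 0.21 (0.656) and Pbef1 by 0.10 ± 0.06 (0.195). Summed adipocyte transcripts were 4782 to 5891 CPM and 4729 to 5823 CPM with the C57 and the C3H nucleus. Plin (4.83 to 20.6 CPM) and Pparg (3.65 to 10.5 CPM) were a small part of that sum, so like sums do not show like fat content. Of 16 adipocyte genes 3 were higher and 0 lower, and their part was not tested.

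**Figure D3:**
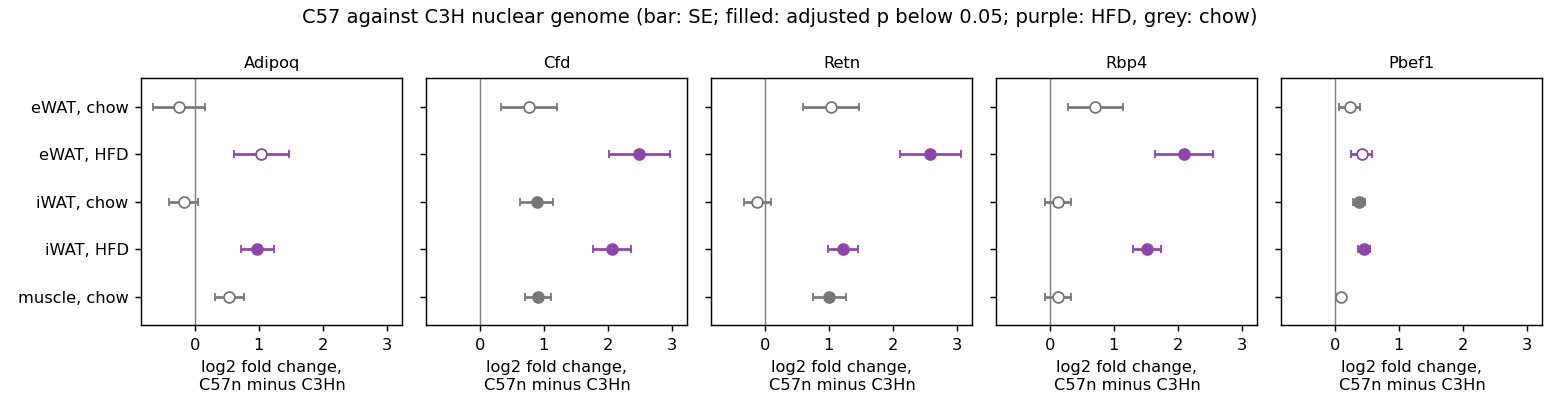
Log2 fold change of C57n minus C3Hn (x axis; bar, SE) for each gene by tissue and diet, HFD in purple and chow in grey; filled points have an adjusted p below 0.05. For Adipoq, Cfd, Retn and Rbp4 the HFD points lie further right than the chow points of the same depot, and Pbef1 lies between 0.10 and 0.46 throughout.

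Whether the diet response differs between nuclear genomes was tested as an interaction, the response in C57n mice minus that in C3Hn mice. In iWAT 0.717% of genes (121) were called, and Retn and Rbp4 were among them. DESeq2 called 4 of the 5, and 8.64% of all genes. The interaction was 1.39 ± 0.29 for Rbp4 (edgeR adjusted p = 0.0382) and 1.34 ± 0.31 for Retn (0.0479). It was 1.18 ± 0.38 for Cfd (0.0858), 1.15 ± 0.34 for Adipoq (0.078) and 0.08 ± 0.13 for Pbef1 (0.728).

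These 2 calls stood close to the threshold. Rbp4 was called in 14 and Retn in 8 of 30 fits that left out 1 library, with values from 1.22 to 1.48 and from 1.18 to 1.48 and the highest adjusted p at 0.0769 and 0.0924. With run as a covariate the values were 1.23 (edgeR adjusted p = 0.052) and 1.21 (0.0747), and with the adipocyte list as a covariate 1.04 (0.109) and 0.995 (0.143). In eWAT 0% of genes were called for this interaction, by edgeR, against 993 by DESeq2, and 3627 had an unadjusted p under 0.05. The values there were 1.72 ± 0.62 for Cfd, 1.55 ± 0.62 for Retn, 1.39 ± 0.61 for Rbp4, 1.28 ± 0.59 for Adipoq and 0.19 ± 0.23 for Pbef1 (adjusted p = 0.161 to 0.665), and 4 of the 5 had an unadjusted p under 0.05.

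The third comparison, exchange line against the wild type with the same nuclear genome, is the one the study was built for. None of the 5 was called by edgeR in any of these 10 comparisons, over 2 nuclear genomes in eWAT and iWAT on each diet and in muscle. The share of all genes called was 0 in eWAT on chow in both nuclei, 0 in eWAT on HFD with the C57 nucleus and 0.0113% with the C3H nucleus, 0 in all 4 iWAT comparisons, and 0 (C57n) and 0.00728% (C3Hn) in muscle. The diet by mtDNA interaction called 0% of genes in either nucleus and depot. DESeq2 called 2 of the 5 in eWAT on HFD with the C3H nucleus (2.83% of all genes) and 1 in muscle with the C57 nucleus (0.102%). It called 0 of the 5 in the other 8 exchange comparisons (0.0364 to 2.69% of all genes) and in the 4 interactions (0.0415 to 2.14%). At an unadjusted p under 0.05 stood 0 to 3 of the 5 in each exchange comparison and 0 or 1 in each interaction, against 153 to 2699 of all genes in the exchange comparisons.

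The largest of these differences was in eWAT of C3Hn mice on HFD. Summed macrophage genes there were at 2952 to 7059 CPM in C3Hn:C57mt and 848 to 3992 CPM in C3Hn:C3Hmt, and their part was not tested. The mean of the adipocyte list was 9.002 to 9.544 against 9.563 to 10.06 log2 CPM. The fit below with this list as a covariate thus compares groups that share no value of it. Cfd was at 226, 94.5 and 110 CPM in C3Hn:C57mt and at 1409, 523, 1055 and 958 CPM in C3Hn:C3Hmt, with no overlap, a difference of -2.78 ± 0.70 (edgeR adjusted p = 0.127, unadjusted 0.000602; DESeq2 adjusted p = 0.000605). Adipoq was at 1116, 791 and 758 CPM against 2182, 2248, 4524 and 3297 CPM, also apart, a difference of -1.78 ± 0.63 (0.255). Retn was at 120, 49.6 and 48.5 CPM against 351, 114, 341 and 306 CPM, overlapping in 1 library of each, a difference of -1.93 ± 0.67 (0.245; DESeq2 0.0436).

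Cfd, Retn and Adipoq were each called here by edgeR without the 6 libraries, 1 of which is C3Hn:C3Hmt HFD replicate 1 (-2.55, adjusted p = 0.0325, -1.79, 0.0387, and -1.91, 0.0205), and with the adipocyte list as a covariate (-2.44, 0.023, -1.46, 0.0318, and -1.20, 0.0247). With that covariate 833 of all genes were called, against 2 in the main fit, and no more than 833 without the 6 libraries. In the main fit Rbp4 differed by -1.23 ± 0.64 (0.429) and Pbef1 by 0.16 ± 0.24 (0.825). On chow the same lines differed by -1.52 ± 0.63 for Cfd, -1.55 ± 0.63 for Retn, -1.35 ± 0.62 for Rbp4 and -1.15 ± 0.60 for Adipoq (adjusted p = 0.344 to 0.421), and 3 of the 5 had an unadjusted p under 0.05, as did 12.5% of all genes. Of the 4 C3Hn:C57mt chow libraries, 2 hold epithelial RNA and replicate 3 was the highest for Cfd, Retn, Rbp4 and Adipoq.

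With the C57 nucleus, too, the mean of Cfd on HFD was higher with C3H than with C57 mtDNA in both depots, without a call by edgeR or DESeq2. It was at 4062, 5668 and 1612 CPM in C57n:C3Hmt and 824, 2221, 1137 and 735 CPM in C57n:C57mt in eWAT, a difference of 1.63 ± 0.63 (edgeR adjusted p = 1), and the C57n:C3Hmt libraries all come from 1 run. In iWAT with the C3H nucleus Cfd was at 1488, 1113 and 999.8 CPM in C3Hn:C3Hmt and at 686.5, 642.4 and 566.8 CPM in C3Hn:C57mt on HFD, without overlap, a difference of -0.91 ± 0.42 for C3Hn:C57mt minus C3Hn:C3Hmt (0.435). In iWAT with the C57 nucleus it was at 6385, 5792, 4067 and 2187 against 2781, 1869, 2533 and 4416 CPM (0.67 ± 0.36, 0.978) on HFD and at 3021, 2918, 5616 and 3277 against 3905, 9284, 11400 and 4499 CPM (-0.95 ± 0.36, 1) on chow. The diet by mtDNA interaction of Cfd with the C57 nucleus was 1.62 ± 0.51 in iWAT (adjusted p = 1, unadjusted 0.00409) and 1.81 ± 0.86 in eWAT (0.683, unadjusted 0.047).

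In muscle with the C57 nucleus, 3 of the 5 were at an unadjusted p under 0.05 (4.5% of all genes) and higher with C3H mtDNA. Rbp4 was at 12.5, 8.56, 11.9 and 11.2 CPM in C57n:C3Hmt and at 3.29, 1.80, 5.17 and 6.66 CPM in C57n:C57mt, without overlap, a difference of 1.38 ± 0.29 (edgeR adjusted p = 0.499; DESeq2 0.0074). Adipoq was at 125, 67.3, 94.8 and 71.4 against 27.5, 18.8, 38.6 and 49.4 CPM, a difference of 1.41 ± 0.32 (0.499), and Retn at 17.9, 17.4, 28.6 and 21.8 against 8.32, 3.85, 12.49 and 13.8 CPM, a difference of 1.15 ± 0.35 (0.877). Both pairs of groups were apart. The mean of the adipocyte list was apart too, at 6.711 to 7.025 log2 CPM in C57n:C3Hmt and 6.274 to 6.577 in C57n:C57mt. The part of adipocyte RNA in these differences was not tested. Pbef1 differed by -0.01 ± 0.08 (1).

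The fourth comparison sets the depots side by side, averaged over genotypes. On chow 33.3% of 18325 genes were called between eWAT and iWAT, and Rbp4 alone of the 5, higher in eWAT by 0.72 ± 0.23 (edgeR adjusted p = 0.0124). Without the 6 libraries with epithelial RNA it was higher by 1.15 (1.06e-06), and Adipoq (0.70, 0.00217) and Retn (0.51, 0.034) were called higher in eWAT too. No more than 6576 of all genes were then called, against 6099 with all libraries. On HFD 23% of genes were called, and Cfd (-0.99 ± 0.26, 0.00453) and Retn (-0.79 ± 0.25, 0.0173) were lower in eWAT. Adipoq differed by -0.09 ± 0.24 on HFD (95% interval -0.56 to 0.39).

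In 20 animals both depots were sequenced, 8 on chow and 12 on HFD. On HFD Cfd was higher in eWAT than in iWAT in 1 of 12 animals, with a median difference of -1.19 log2 CPM and a range of -2.86 to 0.49. Rbp4 was higher in eWAT in 8 of 12 on HFD (median 0.60) and in 6 of 8 on chow (median 0.86, from -2.18 to 2.21). The animal at -2.18 is C3Hn:C57mt, and its eWAT library holds epithelial RNA. With the animal as a block in these 20, Rbp4 was called on HFD as well (0.46, edgeR adjusted p = 0.0491), and no other call between depots changed. Pbef1 differed least within an animal, by -0.37 to 0.28 log2 CPM over all 20.

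The difference of the diet response between depots called 8 genes (0.0437%), none of the 5, by edgeR; 2887 genes and 2 of the 5 had an unadjusted p under 0.05, and DESeq2 called 633 genes and none of the 5. It was -0.89 ± 0.34 for Retn (adjusted p = 0.184) and -0.75 ± 0.36 for Cfd (0.298). Without the 6 libraries Retn was called (-1.34, edgeR adjusted p = 0.02), and no more than 633 of all genes were. Between the depots, all 10 lymphocyte genes and all 8 skeletal muscle genes were lower in eWAT on both diets, and 5 of 5 tested mesothelial genes were higher. Their part in these differences was not tested.

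**Figure D4:**
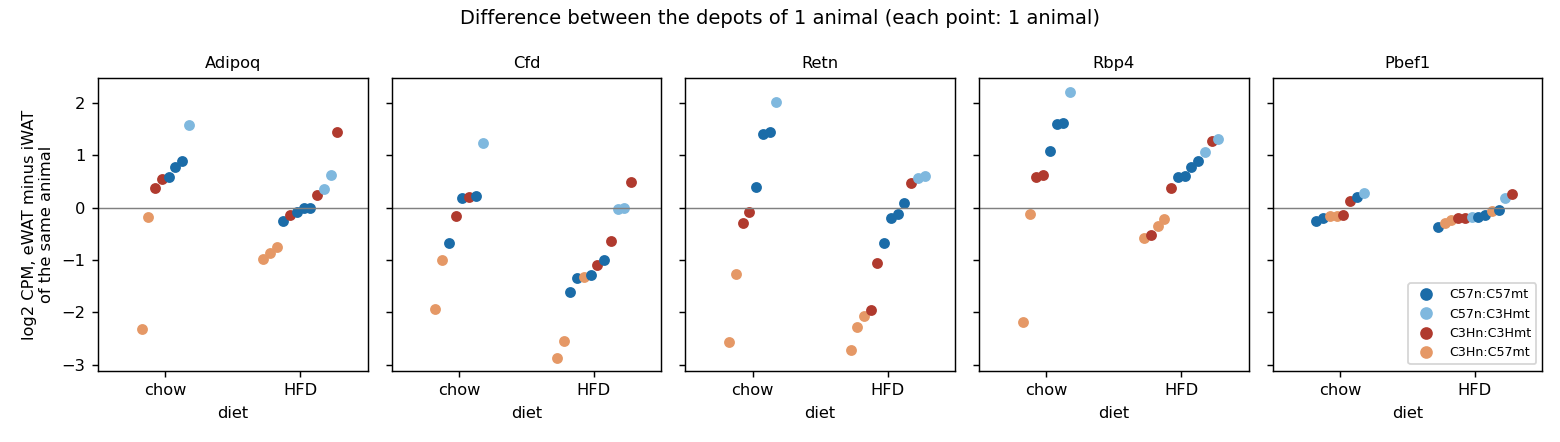
Difference in log2 CPM between eWAT and iWAT of the same animal (y axis), each point 1 animal, by diet and coloured by genotype. For Cfd on HFD 1 of 12 animals lies above 0, and Pbef1 stays within -0.37 to 0.28. C3Hn:C57mt animals lie lowest for Adipoq on both diets, but on chow their eWAT libraries, replicates 2 and 4, both hold epithelial RNA.

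How the 5 varied together across the 59 fat libraries is given as a description, over libraries that share diet, genotype and depth groups. Pearson's r of log2 CPM was 0.864 between Retn and Rbp4 (Spearman's rho 0.878), 0.858 between Cfd and Retn (0.783) and 0.833 between Adipoq and Rbp4 (0.837). It was 0.755 between Adipoq and Retn (0.74), 0.678 between Cfd and Rbp4 (0.659) and 0.565 between Adipoq and Cfd (0.496). Between Pbef1 and the other 4 it was 0.317 to 0.418. In iWAT alone r between Adipoq and Cfd was 0.425 (rho 0.297, n = 30), close to those values. In eWAT alone r was 0.953 for Retn and Rbp4 (n = 29), and in iWAT 0.93 (n = 30). Adipoq went furthest with the mean of the adipocyte list (r = 0.815 over 59 libraries), Cfd least of the 4 (0.491).

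The genes whose levels were most like each of the 5 were then taken from all genes of the joint fit. For Adipoq they were Cib2 (r = 0.941, n = 59), 1190002H23Rik (0.937) and Fgfrl1 (0.935). For Cfd they were Apoe, which encodes apolipoprotein E (0.924), Pxmp2, a peroxisomal membrane protein (0.883), and the growth factor Vegfb (0.882). For Retn they were Pxmp2 (0.933), the monoacylglycerol acyltransferase Mogat1 (0.907) and the fatty acid receptor Gpr120 (0.899). For Rbp4 they were the selenium binding protein Selenbp1 (0.931), Rbms2 (0.924) and Cdo1, the cysteine dioxygenase (0.913). Pbef1 had lower values, with AK030275 (0.859), the phosphatase Ptp4a1 (0.812) and Pnpt1 (0.81). Without the 6 libraries with epithelial RNA (n = 53) Apoe stayed first for Cfd (0.935), Pxmp2 for Retn (0.934) and AK030275 for Pbef1 (0.812), while Opn3 (0.917) led for Adipoq and Rbms2 (0.936) for Rbp4.

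Genes that work with the 5 were followed in the mean diet comparison of each depot, to be read beside the shares of all genes called above. In eWAT these fits include the 6 libraries with epithelial RNA and were not repeated without them. In both depots the values of these genes are without the correction for G+C content and length. With that correction 4907 of 14938 genes were called in eWAT, against 7309 of 17687 without it. In iWAT 2832 of 14240 genes were called with it, against 6348 of 16884. Of 12 genes on adiponectin's route of assembly and signalling, 4 rose and 1 fell in eWAT and 5 rose and 0 fell in iWAT, with medians of 0.07 and 0.44 against -0.10 and 0.01 for all genes. The oxidoreductase Ero1l, which helps adiponectin to assemble, rose by 0.88 ± 0.06 in eWAT (edgeR adjusted p = 2.32e-09) and 0.83 ± 0.09 in iWAT. The receptor adaptor Appl1 rose by 0.63 ± 0.08 and 0.54 ± 0.05, and the AMP kinase subunit Prkaa2 by 0.88 ± 0.27 and 1.10 ± 0.33. The receptors Adipor1 and Adipor2 were called in neither depot.

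Of 15 tested genes of the alternative complement pathway, 6 rose and 0 fell in each depot, beside the fall of Cfd, with medians of 0.71 in eWAT and 0.32 in iWAT. The complement receptor subunits Itgb2 (1.65 ± 0.35) and Itgam (1.51 ± 0.27) and the anaphylatoxin receptor C3ar1 (1.56 ± 0.33) had the largest rises in eWAT, and C3ar1 (0.88 ± 0.20) and Vsig4 (0.85 ± 0.30) in iWAT. Macrophages are known to carry Itgam, Itgb2 and C3ar1, and 9 of 10 macrophage markers rose in eWAT and 8 of 10 in iWAT; their part was not tested. Of 6 tested genes of the resistin family and its proposed receptors, 4 rose in eWAT and 2 in iWAT and 0 fell, with Tlr4 at 1.05 ± 0.17 and 0.65 ± 0.13, Dcn at 0.58 ± 0.14 and 0.48 ± 0.16, and Ror1 at 1.31 ± 0.19 in eWAT.

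Of the genes of retinol transport and retinoic acid, 4 of 19 rose and 0 fell in eWAT and 3 of 17 rose and 1 fell in iWAT. Aldh1a2, which makes retinoic acid, rose by 0.82 ± 0.18 in eWAT and 1.15 ± 0.21 in iWAT. The retinol binding protein receptor 1300002K09Rik (now Rbpr2) rose by 2.16 ± 0.38 and Aldh1a3 by 0.65 ± 0.14 in eWAT. In iWAT Aldh1a1 rose by 0.59 ± 0.22, and Ttr, the blood carrier of the Rbp4 complex, by 3.60 ± 1.03 with 0 to 67.5 CPM on chow (median 0.0548) and 0.156 to 65.4 CPM on HFD (median 2.78). The liver gene Apoa1 rose there too (medians 0.339 and 3.07 CPM), as did 4 of 5 liver and serum genes, Ttr among them; their part was not tested.

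Of the genes of NAD synthesis and use, 2 rose and 5 fell in eWAT (of 17 tested), and 1 rose and 4 fell in iWAT (of 18), beside Pbef1. Sirt1, an NAD-dependent deacetylase, rose by 0.53 ± 0.09 and 0.55 ± 0.09. Naprt1, which makes NAD from nicotinic acid, fell by 0.49 ± 0.12 and 0.58 ± 0.10, the mitochondrial Nmnat3 fell by 0.70 ± 0.12 in eWAT and Parp1 by 0.43 ± 0.14 in iWAT. The NAD glycohydrolase family member Bst1 rose by 1.26 ± 0.27 in eWAT.

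Among 8 tested C1q/TNF genes, the paralogues of adiponectin, 3 rose and 1 fell in eWAT and 2 rose and 0 fell in iWAT. C1qtnf3 rose by 1.11 ± 0.26 in iWAT and C1qtnf6 by 0.63 ± 0.17 in eWAT and 0.34 ± 0.10 in iWAT. C1qtnf1 rose by 0.62 ± 0.24 and C1qtnf4 fell by 3.80 ± 1.21 in eWAT. Among other adipokines, 6 rose and 1 fell of 24 in eWAT, and 5 rose and 0 fell of 23 in iWAT. Leptin, Lep, rose by 1.03 ± 0.34 in eWAT (edgeR adjusted p = 0.0204) and 1.04 ± 0.33 in iWAT (0.016), and the chemokine Ccl2 by 1.92 ± 0.44 and 1.32 ± 0.30. Il6 rose by 1.79 ± 0.32 and Wisp2 by 1.09 ± 0.32 in eWAT, and the peptide hormone Apln by 0.97 ± 0.25 in iWAT. Between nuclear genomes on HFD Lep differed by 0.57 ± 0.49 in eWAT (0.501) and 0.17 ± 0.49 in iWAT (0.842), comparisons in which Cfd, Retn and Rbp4 were called in both depots.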

How the data were processed

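Gene expression was measured by RNA-seq (Illumina) in 75 libraries of fat and muscle. The authors deposited expected counts per gene and per transcript made with RSEM on build mm9, per the submitters' processing notes, which also name DESeq2 1.10.1. Reads were mapped with a proprietary algorithm of the sequencing provider, per the series' design text; the RSEM version and the annotation were not given in the sources used here. Each library's G+C percent of aligned reads was deposited by the authors, per the file headers. Reads were placed on a reference of C57BL/6J origin, and an effect of strain differences on counts was not tested.

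Expected counts were rounded to whole numbers. Genes were kept with edgeR's filterByExpr (minimum count 10, total 15, proportion 70%), and for fat only the 21625 genes in both tables were used. TMM factors and edgeR 4.0.16's quasi-likelihood test (limma 3.58.1, R 4.3.3) were fitted per tissue over all groups, and over both depots for the depot comparison, with Benjamini-Hochberg adjustment over all genes and calls at an adjusted p below 0.05. Log2 CPM used a prior count of 2; RPKM divided CPM by merged exon length. DESeq2 1.42.0 was an alternative. The code was tested on simulated data.

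The 5 genes and all lists were chosen with earlier results of these data known. Named genes are the 5, up to 3 called genes per pathway list with the largest change in each depot's mean diet comparison, Lep, and the 3 genes most correlated with each of the 5. Single marker genes are named to check a tissue. Adipor1, Adipor2, Slc2a4, Apoa1 and Opn3 fall outside these rules and were named after their values were seen. The values of 1 gene that the pathway rule selects are not reported here. P-values measure the spread between animals within groups, except that the joint fit of both depots counted the 2 depots of 1 animal as separate libraries. Titles show that 20 animals gave both depots, so the animal was a block in an alternative; the correlation of the 2 depots' deviations within an animal was -0.0692 to 0.334 (median 0.0978, 10 of 20 over 0.1).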

Additional observations from a re-analysis of the deposited data

Results flagged for a closer look

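Of 75 sets of 4 libraries (5 genes in 15 groups) checked for a library far from the other 3, 5 held one, and chance gives about 1 in 20. Cfd in eWAT of C3Hn:C57mt on chow was at 3596 CPM in replicate 3, against 669 to 876 CPM in the others. Cfd in iWAT of C3Hn:C3Hmt on chow was at 2022 CPM in replicate 1, against 3621 to 3873 CPM. Adipoq in iWAT of C57n:C3Hmt on chow was at 3540 CPM in replicate 1, against 1429 to 1710 CPM. Cfd in iWAT of C57n:C3Hmt on chow was at 5616 CPM in replicate 3, against 2918 to 3277 CPM. Retn in muscle of C3Hn:C3Hmt was at 4.93 CPM in replicate 3, against 7.06 to 7.37 CPM.

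In iWAT the diet response differed between nuclear genomes by the interaction test for Retn (1.335 on the log2 scale, edgeR adjusted p = 0.0479) and for Rbp4 (1.393, 0.0382).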

How the results depend on the processing

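Values are log2 differences with the edgeR adjusted p unless another tool is named. Without the 6 libraries with epithelial RNA, calls were gained for the diet in eWAT by Adipoq (-0.64) and Rbp4 (-1.18), for C57n minus C3Hn in eWAT by Adipoq (0.99) and Pbef1 (0.42) on HFD and by Pbef1 (0.56), Rbp4 (0.99) and Retn (1.35) on chow. They were also gained for C3Hn:C57mt minus C3Hn:C3Hmt in eWAT on HFD by Adipoq (-1.91), Cfd (-2.55) and Retn (-1.79), for eWAT minus iWAT on chow by Adipoq (0.70) and Retn (0.51), and for depot by diet by Retn (-1.34). With the adipocyte list as a covariate, calls were gained for the same C3Hn comparison by Adipoq (-1.20), Cfd (-2.44) and Retn (-1.46), for the diet by Adipoq in iWAT (0.33) and Pbef1 (0.32) and Rbp4 (-0.45) in eWAT, and for C57n minus C3Hn in eWAT on chow by Rbp4 (0.91) and Retn (1.12), while diet by nuclear genome in iWAT was lost for Rbp4 (1.04) and Retn (0.995). With the lymphocyte list as a covariate Rbp4 (-0.53) and Retn (-0.47) were called for the diet in iWAT, and Adipoq (1.09) for diet by nuclear genome. DESeq2 added Adipoq (1.05) for C57n minus C3Hn in eWAT on HFD, Retn (1.05) on chow, Cfd (-2.80) and Retn (-1.95) for the C3Hn exchange in eWAT on HFD, Rbp4 (1.38) for the C57n exchange in muscle, Adipoq (1.12) and Cfd (1.16) for diet by nuclear genome in iWAT, and Rbp4 for the diet in eWAT (-0.76) and iWAT (-0.37). RLE factors added the same Rbp4 diet calls (-0.76 and -0.37). Diet by nuclear genome in iWAT was lost with run as a covariate for Rbp4 (1.23) and Retn (1.21), and for Retn with the G+C and length correction (1.13) and with no filter on low counts (1.32). The correction reversed Pbef1 for the diet in iWAT (-0.15, 0.145). Counts of all genes called moved in these fits too, as given below. The causes were not tested.

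With the animal as a replicate block in the 20 paired animals, Rbp4 was called between depots on HFD (0.46, 0.0491) and the other 14 values kept their call; the same 20 animals without the block, an alternative chosen after seeing the data, kept all 15. Leaving out 1 library gave 0.41 to 0.67 for Adipoq (C57n minus C3Hn, muscle), 0.74 to 0.99 for Cfd (C57n minus C3Hn, iWAT chow), 0.35 to 0.48 for Pbef1 (C57n minus C3Hn, eWAT HFD) and -0.24 to -0.12 for Pbef1 (eWAT minus iWAT, chow). For the mean diet difference it gave 0.23 to 0.35 for Pbef1 in eWAT, and for Rbp4 -0.82 to -0.56 in eWAT and -0.44 to -0.31 in iWAT. For diet by nuclear genome in iWAT it gave 0.94 to 1.30 for Adipoq, 0.999 to 1.33 for Cfd, 1.22 to 1.48 for Rbp4 and 1.18 to 1.48 for Retn. Sign changes of values never called were not counted as reversals. Counts of all genes called moved more: for diet by nuclear genome in iWAT from 121 to between 5 and 2223, for the diet in iWAT from 6348 to between 2832 and 9331, and for the exchange comparisons, 0 to 2 by edgeR, up to 833.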
